A study of Mus musculus with 6 samples.

Results

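The let-7 family of miRNAs, taken with its close relative miR-98, was followed in small RNA of the mouse hippocampus after loss of Dicer1. The members were all mature miRNA rows named let-7a to let-7g, let-7i or miR-98, from either arm of the hairpin. They came to 21 mature miRNA names in 24 deposited rows, out of 1900 names in 2035 rows. The additional 3 rows are second loci of let-7a-5p, let-7c-5p and let-7f-5p, whose reads were summed, and let-7j and let-7k were left out.

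Small RNA was sequenced from the hippocampus of male C57BL/6 mice aged 3 months, all of them Dicer1 flox/flox and all treated with tamoxifen 3 weeks before the tissue was taken. The Dicer1-ifKO mice also carried CaMKIIa-creERT2, a tamoxifen-inducible Cre recombinase driven by a promoter of excitatory forebrain neurons, so that glia, vessels and interneurons of the tissue are not its target. The WT mice had the same floxed alleles and tamoxifen without the transgene. There were 3 libraries of each genotype, each made from the pooled RNA of 3 mice, and p-values therefore measure how pools vary, not how single mice vary.

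The Dicer1 protein is the ribonuclease that trims each precursor hairpin to a duplex of mature length. The strand loaded into an Argonaute protein guides silencing through its seed, bases 2 to 8, and the other strand is mostly degraded. In the let-7 family the guide is usually the 5p arm. Let-7 was first described in Caenorhabditis elegans as a timing gene. In mammals its members are abundant in differentiated cells, neurons included, where they repress growth and stem-cell genes such as Hmga2 and Lin28, and the Lin28 proteins in turn bind let-7 precursors and block their processing.

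The 9 members from the 5p arm share 1 seed, GAGGUAG, and differ from each other only outside it. Their sequences are shown because reads of the members are told apart by these few bases, with the seed in capitals (RefSeq, GRCm38.p6, in which all 21 members were matched, 5′ to 3′).
let-7a-5p: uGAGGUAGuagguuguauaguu
let-7b-5p: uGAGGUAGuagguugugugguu
let-7c-5p: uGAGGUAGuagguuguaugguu
let-7d-5p: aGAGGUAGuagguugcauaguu
let-7e-5p: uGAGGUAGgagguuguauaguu
let-7f-5p: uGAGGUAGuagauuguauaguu
let-7g-5p: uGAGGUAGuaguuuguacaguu
let-7i-5p: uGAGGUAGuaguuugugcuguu
miR-98-5p: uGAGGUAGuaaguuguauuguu

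With positions counted from the 5′ end and the base of let-7a-5p written first, let-7c-5p differs from let-7a-5p by A19G, let-7e-5p by U9G and let-7f-5p by G12A. The changes are A17G and A19G in let-7b-5p, U1A and U16C in let-7d-5p, G12U and U18C in let-7g-5p, and G11A and A19U in miR-98-5p. The most distant 5p member is let-7i-5p, with G12U, A17G, U18C and A19U. Where members differ by 1 base, the split of reads between them depends on the mismatches the alignment allowed, which the sources used here do not give.

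The 12 members from the 3p arm are 21 or 22 nt long and have 8 different seeds. The seed UAUACAA is shared by 5 of them, let-7a-1-3p, let-7b-3p, let-7c-2-3p, let-7f-1-3p and miR-98-3p. The 3p members on which results below turn are printed with the seed in capitals.
let-7a-1-3p: cUAUACAAucuacugucuuucc
let-7c-2-3p: cUAUACAAucuacugucuuucc
let-7c-1-3p: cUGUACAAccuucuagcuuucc
let-7d-3p: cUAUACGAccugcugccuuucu
let-7e-3p: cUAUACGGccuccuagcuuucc
Let-7a-1-3p and let-7c-2-3p are 1 sequence under 2 names, so the 21 names stand for 20 distinct sequences. Reads of exactly this sequence cannot be assigned to a hairpin.

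The members come from 12 hairpins (GRCm38). The largest cluster lies on the minus strand of chromosome 13 and holds let-7d (chr13:48536012-48536114), let-7f-1 (chr13:48537829-48537917) and let-7a-1 (chr13:48538179-48538272). On the plus strand of chromosome 15, let-7c-2 (chr15:85706603-85706697) lies next to let-7b (chr15:85707319-85707403). On the plus strand of chromosome X, let-7f-2 (chrX:151912346-151912428) and miR-98 (chrX:151913214-151913321) lie inside the span of Huwe1, a ubiquitin ligase gene. Also on plus strands, let-7a-2 (chr9:41536716-41536811) lies downstream of miR-100, let-7c-1 (chr16:77599657-77599750) downstream of miR-99a, and let-7e (chr17:17830352-17830444) between miR-99b and miR-125a. Let-7g (chr9:106178840-106178927) lies inside the span of Wdr82, which encodes a histone methyltransferase subunit, and let-7i lies on the minus strand of chromosome 10 (chr10:122985640-122985724). Of the 50867 counts of the Wdr82 span over the 6 libraries, 50835 were those of the let-7g rows, and 125479 of the 125671 counts of the Huwe1 span were those of let-7f and miR-98 rows. These host gene spans therefore hold almost no reads other than the miRNAs inside them and give no level of the host RNA.

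The miRNA rows held 2318205 to 3179363 counts per library, of which the members held 176546 to 246647. Levels are given as CPM, counts scaled to the counts of the tested features of each library (39319524 to 54537209) after TMM. Overlapping features each count the same read, so CPM ranks features but is not a share of reads. The members are of nearly equal length, and CPM values are therefore compared between them directly. Among the miRNAs used as cell type markers, none of the 6 short lists had a miRNA at 0 in all libraries, and the 5 neuron and brain miRNAs (miR-124-3p, miR-9-5p, miR-128-3p, miR-138-5p and miR-132-3p) summed to 2612 to 3285 CPM in Dicer1-ifKO and 3125 to 4025 CPM in WT. Of these, miR-128-3p was lower without overlap (1036 to 1167 CPM in Dicer1-ifKO, 1412 to 1682 CPM in WT, log2 -0.47, edgeR adjusted p = 0.15), and the others overlapped. The 3 microglia and leukocyte miRNAs summed to 164 to 181 CPM in Dicer1-ifKO and 127 to 159 CPM in WT, nearly all of it miR-150-5p (163 to 181 CPM in Dicer1-ifKO and 127 to 159 CPM in WT). The rare miR-142-3p was also higher without overlap (0.358 to 0.819 CPM in Dicer1-ifKO, 0.146 to 0.328 CPM in WT, edgeR adjusted p = 0.43), and miR-223-3p overlapped. The 4 choroid plexus and epithelium miRNAs summed to 219.2 to 238.0 CPM in Dicer1-ifKO and 320 to 347 CPM in WT, nearly all of it miR-204-5p (216 to 236 CPM in Dicer1-ifKO and 318 to 342 CPM in WT), while the other 3 overlapped between the genotypes. The oligodendrocyte, endothelium and erythrocyte lists overlapped between the genotypes. The part of these cell types in the results below was not tested. In RNA of a whole tissue, fewer cells of a type and less RNA per cell cannot be told apart. The Dicer1 span had 37, 32 and 35 counts in Dicer1-ifKO replicates 1, 2 and 3 and 45, 33 and 47 in WT replicates 1, 2 and 3 (log2 -0.24, edgeR adjusted p = 0.93), reads that do not resolve the floxed exon and so check no label.

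The 5p members other than miR-98-5p were among the more abundant miRNAs of these libraries. All 21 members together held 7.62%, 6.99% and 7.41% of all miRNA counts in Dicer1-ifKO replicates 1, 2 and 3, and 8.001%, 6.64% and 7.76% in WT replicates 1, 2 and 3. The mean share was 7.34% ± 0.32 in Dicer1-ifKO and 7.47% ± 0.72 in WT (SD, n = 3 each), and the genotypes overlapped. Between 97.6% and 98.5% of the member counts of a library lay in the 5p rows. Of 1154 miRNAs with any count, let-7c-5p ranked 8 by mean CPM over all 6 libraries, let-7f-5p 17, let-7a-5p 19, let-7d-5p 23, let-7b-5p 28, let-7i-5p 32, let-7g-5p 44 and let-7e-5p 53. The most abundant 3p member, let-7d-3p, ranked 83, ahead of miR-98-5p at 171.

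The order of the 5p members was the same in both genotypes. In Dicer1-ifKO, let-7c-5p stood at the top with 1222 ± 39.5 CPM, followed by let-7f-5p at 850 ± 222, let-7a-5p at 546 ± 55.3, let-7d-5p at 373 ± 16.4, let-7b-5p at 254 ± 5.88, let-7i-5p at 253 ± 40.3, let-7g-5p at 176 ± 39.8, let-7e-5p at 119 ± 14.6 and miR-98-5p at 12.5 ± 3.37 CPM (SD, n = 3). In that order, let-7b-5p and let-7i-5p overlapped in range, and every other neighbouring pair of 5p members was apart. In WT the same order ran from 1566 ± 157 CPM for let-7c-5p through 799 ± 240 for let-7f-5p, 625 ± 86.4 for let-7a-5p, 460 ± 69.5 for let-7d-5p, 383 ± 32.0 for let-7b-5p, 329 ± 98.7 for let-7i-5p, 183 ± 44.6 for let-7g-5p and 151 ± 26.8 for let-7e-5p to 14.1 ± 2.65 CPM for miR-98-5p (SD, n = 3). There the ranges of let-7f-5p and let-7a-5p, of let-7d-5p and let-7b-5p, of let-7b-5p and let-7i-5p, and of let-7g-5p and let-7e-5p overlapped.

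**Figure D1:**
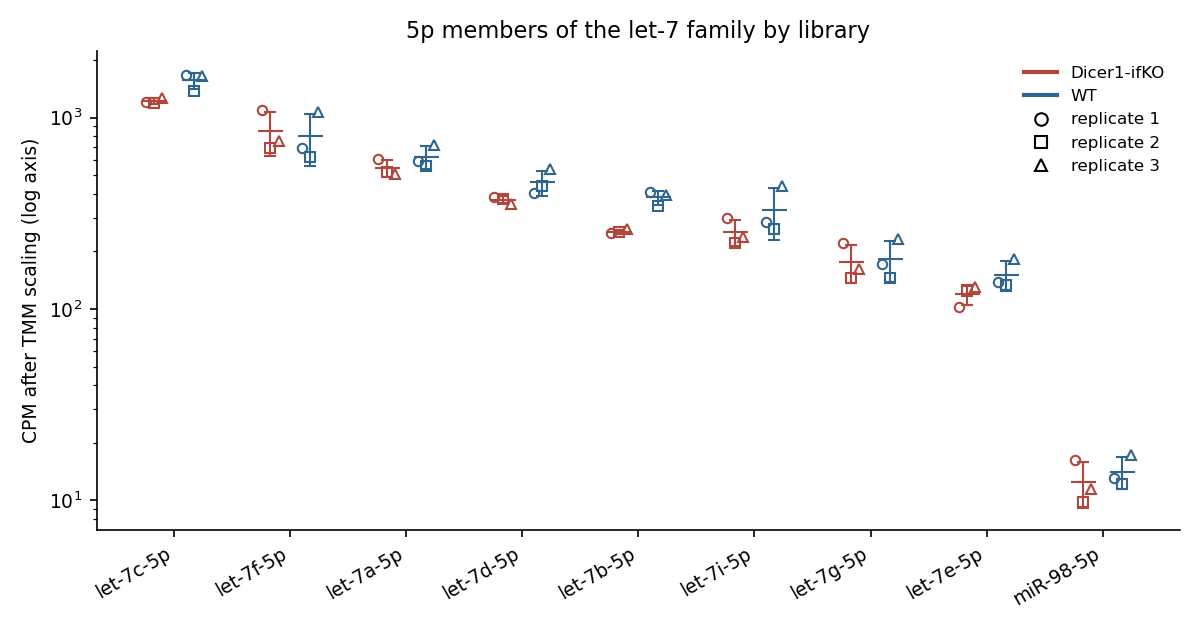
CPM after TMM scaling (log axis) of the 9 5p members in each library, with Dicer1-ifKO left of WT; symbols mark the replicate, and bars give the mean ± SD (n = 3). Let-7b-5p sits between 249 and 261 CPM in Dicer1-ifKO, below all 3 WT libraries, while let-7f-5p and miR-98-5p are highest in Dicer1-ifKO replicate 1 and WT replicate 3.

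No member passed the test between the genotypes. Of the 21 members, 20 had enough counts to be tested, all but miR-98-3p. By edgeR's quasi-likelihood test with Benjamini-Hochberg adjustment over 6502 features, 0 members were lower and 0 were higher in Dicer1-ifKO at an adjusted p of 0.05, where 6.88% of the 509 tested miRNAs were lower and 0.0% higher. By DESeq2 the counts were also 0 and 0, with 8.39% lower of the 417 miRNAs that DESeq2 gave an adjusted p. Let-7c-1-3p, let-7a-2-3p and let-7f-1-3p had no DESeq2 adjusted p. At an unadjusted p of 0.05, 4 members were lower by edgeR (let-7b-5p, let-7c-5p, let-7d-3p and let-7e-3p) and 0 higher, against 32.0% of tested miRNAs lower and 1.96% higher. DESeq2 gave 2 members lower at an unadjusted p of 0.05 (let-7b-5p and let-7d-3p) and 0 higher, against 21.8% of tested miRNAs lower and 1.96% higher.

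The sizes of the changes lay close to those of miRNAs as a whole. The log2 change lay below 0 for 13 of the 20 tested members and above 0 for 7, where 76.4% of tested miRNAs lay below 0 and 23.6% above. The median log2 change was -0.19 over the 20 members, -0.25 over the 509 tested miRNAs and -0.05 over all tested features. When the miRNA rows alone set the scaling, the median change of the members was 0.07, so the direction of the family as a whole depended on the scaling. The 9 5p members had a median of -0.30 and 8 of them lay below 0, and the 11 tested 3p members had a median of 0.00060 and 5 lay below 0.

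**Figure D2:**
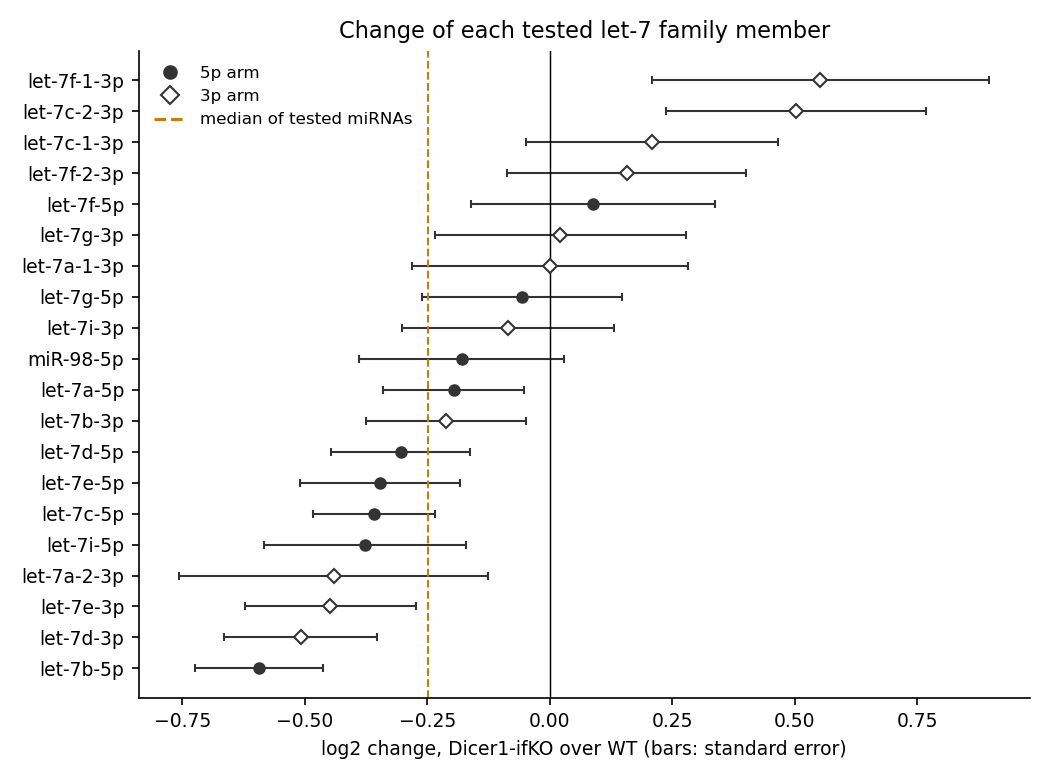
Log2 change, Dicer1-ifKO over WT, of the 20 tested members with the standard error (horizontal axis), ordered by size; filled circles are 5p members, open diamonds 3p members, and the dashed line is the median of the 509 tested miRNAs. Let-7b-5p has the lowest value (-0.59) and let-7f-1-3p the highest (0.55), and 13 of the 20 members lie below 0 at this scaling, which gives a median of 0.07 when the miRNA rows alone set it.

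The CPM values of the genotypes did not overlap for 6 of the 20 tested members, all lower in Dicer1-ifKO. That is 30% of the members, where 34.4% of tested miRNAs were lower without overlap, so the share is near the background. The 6 were let-7e-5p, let-7d-5p, let-7c-5p and let-7b-5p of the 5p arm and let-7d-3p and let-7e-3p of the 3p arm. No member was higher without overlap, against 2.36% of tested miRNAs.

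Let-7b-5p had the log2 change farthest from 0 among the 5p members at the main scaling, though not under every alternative. It had 249, 252 and 261 CPM in Dicer1-ifKO replicates 1, 2 and 3, and 408, 347 and 395 CPM in WT replicates 1, 2 and 3. The lowest WT library stood well above the highest Dicer1-ifKO library. The ratio was 0.66, and the log2 change of -0.59 ± 0.13 (SE) had an unadjusted p of 5.7e-04 and did not pass after adjustment (edgeR adjusted p = 0.056). Without WT replicate 1 it was called (log2 -0.54, edgeR adjusted p = 0.033), and over the 18 alternatives run the adjusted p ranged from 0.033 to 0.67. With the miRNA rows setting the scale the log2 change was -0.34, a movement of more than 1.5 times.

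Let-7c-5p, the most abundant member, had 1204, 1194 and 1267 CPM in Dicer1-ifKO replicates 1, 2 and 3, and 1662, 1385 and 1650 CPM in WT replicates 1, 2 and 3. The Dicer1-ifKO libraries lay close together, and all 3 WT libraries were higher. Its log2 change was -0.36 ± 0.12 (SE, unadjusted p = 0.013, edgeR adjusted p = 0.35). Let-7d-5p, from the chromosome 13 cluster, had 386, 378 and 354 CPM in Dicer1-ifKO and 404, 439 and 538 CPM in WT. The gap between the genotypes was small, and the spread within WT exceeded it. The log2 change of let-7d-5p was -0.30 ± 0.14 (SE, edgeR adjusted p = 0.65). Let-7e-5p, which carries its base change next to the seed, had 103, 125 and 130 CPM in Dicer1-ifKO and 139, 133 and 182 CPM in WT. The highest Dicer1-ifKO library lay just under the lowest WT library, and the log2 change was -0.35 ± 0.16 (SE, edgeR adjusted p = 0.66).

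The other 5p members overlapped between the genotypes. Let-7a-5p, summed over the loci on chromosomes 9 and 13, had 609, 521 and 507 CPM in Dicer1-ifKO and 596, 557 and 722 CPM in WT (log2 -0.20 ± 0.14 SE, edgeR adjusted p = 0.90). Let-7i-5p had 299, 222 and 239 CPM in Dicer1-ifKO and 284, 261 and 442 CPM in WT (log2 -0.38 ± 0.21 SE, edgeR adjusted p = 0.79). Its highest value was in WT replicate 3, apart from the other 5 libraries. Let-7g-5p had 221, 146 and 161 CPM in Dicer1-ifKO and 172, 145 and 232 CPM in WT (log2 -0.06 ± 0.20 SE, edgeR adjusted p = 0.99). Let-7f-5p, summed over chromosomes 13 and X, had 1103, 692 and 754 CPM in Dicer1-ifKO and 698, 626 and 1074 CPM in WT (log2 0.09 ± 0.25 SE, edgeR adjusted p = 0.99). Dicer1-ifKO replicate 1 and WT replicate 3 held the high values of let-7f-5p and let-7g-5p alike, and without Dicer1-ifKO replicate 1 the log2 change of let-7f-5p was -0.15, and without WT replicate 2 it was -0.047. MiR-98-5p had 16.3, 9.80 and 11.4 CPM in Dicer1-ifKO and 13.1, 12.2 and 17.2 CPM in WT, with its highest values in the same 2 libraries (log2 -0.18 ± 0.21 SE, edgeR adjusted p = 0.94).

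Of the 3p arms, let-7d-3p was the most abundant and let-7e-3p the next one without overlap between the genotypes. Let-7d-3p had 43.4, 49.3 and 46.6 CPM in Dicer1-ifKO replicates 1, 2 and 3, and 69.8, 72.8 and 55.4 CPM in WT replicates 1, 2 and 3. WT replicate 3 was the lowest of the WT libraries and still above all Dicer1-ifKO libraries. The log2 change was -0.51 ± 0.16 (SE, unadjusted p = 0.0064, edgeR adjusted p = 0.23). Let-7e-3p had 2.87, 3.43 and 3.50 CPM in Dicer1-ifKO and 3.997, 4.80 and 4.58 CPM in WT. Its log2 change was -0.45 ± 0.17 (SE, edgeR adjusted p = 0.47). Let-7b-3p, from the same hairpin as let-7b-5p, overlapped at 10.9, 12.6 and 10.98 CPM in Dicer1-ifKO and 13.4, 14.9 and 11.7 CPM in WT (log2 -0.21 ± 0.16 SE, edgeR adjusted p = 0.91).

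Most of these values moved by over 1.5 times under some alternative, none of them to a call other than that of let-7b-5p. With the miRNA rows setting the scale (TMM), the log2 change was -0.10 for let-7c-5p, -0.035 for let-7d-5p, -0.064 for let-7e-5p, -0.10 for let-7i-5p, 0.065 for let-7a-5p and 0.35 for let-7f-5p, the last farther from 0 than the -0.34 of let-7b-5p. Without WT replicate 3, in which all 5p members but let-7b-5p, let-7c-5p and let-7f-5p had their highest CPM, it was -0.056 for let-7i-5p, -0.030 for let-7a-5p, -0.13 for let-7d-5p, -0.14 for let-7e-5p, 0.20 for let-7g-5p, 0.033 for miR-98-5p and 0.41 for let-7f-5p. Without Dicer1-ifKO replicate 3 let-7a-5p had -0.12. Let-7c-5p kept a log2 change of -0.42 to -0.27 and let-7b-5p one of -0.64 to -0.52 with any 1 library left out. With the GC trend of the libraries removed, the values were -0.18 for let-7c-5p, -0.13 for let-7d-5p, -0.14 for let-7e-5p, -0.19 for let-7i-5p and -0.092 for let-7a-5p. Among the 3p arms, let-7d-3p had -0.26 on the miRNA scale and -0.22 with the GC trend removed, and let-7e-3p -0.18 and -0.090.

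The remaining 8 tested 3p members were rare, with means of 11.5 to 89 counts per library, and all of them overlapped between the genotypes. Let-7i-3p had 93, 91 and 73 counts in Dicer1-ifKO and 75, 93 and 109 in WT (log2 -0.09). Let-7f-2-3p had 63, 64 and 50 counts in Dicer1-ifKO and 55, 39 and 67 in WT (log2 0.16), and let-7g-3p had 36, 48 and 24 in Dicer1-ifKO and 33, 33 and 41 in WT (log2 0.02). In none of these 3 did the libraries of 1 genotype all lie above those of the other. Let-7c-2-3p had 43, 47 and 37 counts in Dicer1-ifKO and 44, 24 and 23 in WT (log2 0.50 ± 0.27 SE, edgeR adjusted p = 0.76). Its twin in sequence, let-7a-1-3p, had 32, 23 and 32 counts in Dicer1-ifKO and 36, 26 and 27 in WT (log2 0.00060). Joined as 1 sequence they had 75, 70 and 69 counts in Dicer1-ifKO and 80, 50 and 50 in WT, overlapping because of WT replicate 1 (log2 0.28 ± 0.23 SE, edgeR adjusted p = 0.92). Let-7c-1-3p had 15, 24 and 22 counts in Dicer1-ifKO and 18, 15 and 20 in WT (log2 0.21). Let-7a-2-3p had 15, 17 and 11 counts in Dicer1-ifKO and 17, 15 and 27 in WT (log2 -0.44, and -0.072 without WT replicate 3 or -0.25 without Dicer1-ifKO replicate 3). Let-7f-1-3p had 11, 20 and 10 counts in Dicer1-ifKO and 9, 11 and 8 in WT (log2 0.55 ± 0.34 SE, edgeR adjusted p = 0.83). MiR-98-3p, too rare for the test, had 9, 3 and 7 counts in Dicer1-ifKO and 7, 2 and 5 in WT.

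The share of a hairpin's counts that lies in the 3p arm needs no scaling between libraries. Of 8 hairpin families with at least 10 counts in each arm and library, only let-7c differed without overlap, which is 1 of 8 where 33.6% of 125 miRNAs with counts in both arms did. Without Dicer1-ifKO replicate 3, WT replicate 2 or WT replicate 3 the count was 3 of 8. Leaving out a library can only keep or raise such a count, and the share over all miRNAs was not computed for these settings. The let-7c 3p share was 0.116%, 0.112% and 0.0988% in Dicer1-ifKO replicates 1, 2 and 3, and 0.0764%, 0.0587% and 0.0563% in WT replicates 1, 2 and 3. All Dicer1-ifKO libraries were higher. The means were 0.109% ± 0.0090 in Dicer1-ifKO and 0.0638% ± 0.011 in WT (SD, n = 3 each; two-sided exact permutation p = 0.1, the smallest that 3 against 3 allows, and 0.53 adjusted over the 8 families). The share rests on 332 counts from 3p rows in all, most of them in the let-7c-2-3p row, whose sequence is also that of let-7a-1-3p. The let-7d family had the highest 3p share, at 10.1%, 11.5% and 11.6% in Dicer1-ifKO and 14.7%, 14.2% and 9.35% in WT. WT replicate 3 was there the lowest of all 6 libraries. Shares of let-7b (4.33% ± 0.37 in Dicer1-ifKO and 3.39% ± 0.64 in WT), let-7e (2.67% ± 0.050 in Dicer1-ifKO and 2.91% ± 0.52 in WT) and let-7i (0.719% ± 0.065 in Dicer1-ifKO and 0.602% ± 0.12 in WT) overlapped (SD, n = 3 each). The same held for let-7a, let-7f and let-7g, at means of 0.166% to 0.441%.

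Mature reads of let-7a-5p, let-7c-5p and let-7f-5p match 2 loci each, and the deposited rows divide them between the loci. For let-7a-5p the chromosome 13 row held 49.3% to 49.9% of the counts in Dicer1-ifKO and 49.9% to 50.4% in WT. For let-7c-5p the chromosome 16 row held 49.5% to 49.7% in Dicer1-ifKO and 49.6% to 49.9% in WT. Both lay near an even division. Let-7f-5p departed from it, with 53.1%, 52.7% and 52.7% of its counts in the chromosome X row in Dicer1-ifKO replicates 1, 2 and 3, and 51.7%, 51.8% and 52.0% in WT replicates 1, 2 and 3. Every library was above an even division, and all Dicer1-ifKO libraries were above all WT libraries, with means of 52.8% ± 0.21 in Dicer1-ifKO and 51.8% ± 0.18 in WT (SD, n = 3 each; two-sided exact permutation p = 0.1, 0.3 adjusted over the 3 miRNAs). The 95% Wilson interval of WT replicate 3 ran from 51.6% to 52.5% and that of Dicer1-ifKO replicate 3 from 52.1% to 53.2%, so the intervals of some libraries overlapped across the genotypes, and they cover counting error only. Of 21 miRNA names with 2 loci, 14.3% had locus shares without overlap, let-7f-5p included. Farther from an even division in every library were miR-128-3p and miR-92a-3p. MiR-128-3p had 53.1% to 55.7% of its counts in its chromosome 1 row, and miR-92a-3p 92.2% to 92.6% in its chromosome 14 row. MiR-194-5p, with fewer counts, was farther from it on average, with means of 46.52% in Dicer1-ifKO and 46.55% in WT in its chromosome 1 row. Its libraries ranged from 43.1% to 51.2%.

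The let-7f hairpins are printed because the mature reads are the same and only bases beyond them can separate the loci. Capitals mark the 5p and then the 3p mature sequence.
let-7f-1: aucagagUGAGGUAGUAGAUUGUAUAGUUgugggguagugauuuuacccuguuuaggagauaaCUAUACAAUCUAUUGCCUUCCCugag
let-7f-2: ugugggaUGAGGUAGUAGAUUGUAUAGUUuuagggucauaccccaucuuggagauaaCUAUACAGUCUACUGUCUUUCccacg
After the 5p arm the let-7f-1 hairpin goes on with GUGG and the let-7f-2 hairpin with UUAG. The sources used here do not say how the counting placed reads with bases beyond the mature end.

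Ratios of members within a library also need no scaling. Of the 36 pairs of 5p members, the ratios of 8 did not overlap between the genotypes, or 22.2%, where 40.2% of 64980 pairs of miRNAs did, so the share of pairs is under the background. Among them, let-7b-5p and let-7c-5p kept a tight ratio within each genotype. Let-7b-5p over let-7c-5p was 0.207, 0.211 and 0.206 in Dicer1-ifKO replicates 1, 2 and 3, and 0.246, 0.251 and 0.239 in WT replicates 1, 2 and 3. The spread within a genotype was small against the gap, with means of 0.208 ± 0.0031 in Dicer1-ifKO and 0.245 ± 0.0058 in WT (SD, n = 3 each), a ratio of 0.85 (two-sided exact permutation p = 0.1, 0.45 adjusted over the 36 pairs). Let-7f-5p over let-7i-5p was 3.69, 3.12 and 3.16 in Dicer1-ifKO and 2.46, 2.40 and 2.43 in WT, again with every Dicer1-ifKO library above every WT library (exact permutation p = 0.1, 0.45 adjusted). Let-7f-5p was also higher against let-7b-5p, let-7g-5p and miR-98-5p without overlap, and the other such pairs were let-7a-5p with let-7b-5p, let-7i-5p with let-7g-5p, and let-7g-5p with miR-98-5p. As a share of all member counts, let-7b-5p took 6.60% ± 0.64 in Dicer1-ifKO and 8.40% ± 0.90 in WT (SD, n = 3 each), lower without overlap. Higher without overlap were the shares of 3 rare members, let-7f-2-3p (0.0325% ± 0.0038 in Dicer1-ifKO and 0.0242% ± 0.0035 in WT), let-7c-2-3p (0.0233% ± 0.0020 in Dicer1-ifKO and 0.0140% ± 0.0056 in WT) and let-7c-1-3p (0.0112% ± 0.0023 in Dicer1-ifKO and 0.00806% ± 0.00023 in WT). The other shares of the 21 members overlapped. In CPM these 3 rare members overlapped between the genotypes. The let-7c-1-3p share was 0.00850% in Dicer1-ifKO replicate 1, from 15 counts, and 0.00826% in WT replicate 1, from 18. No share over all miRNAs was computed for this measure.

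**Figure D3:**
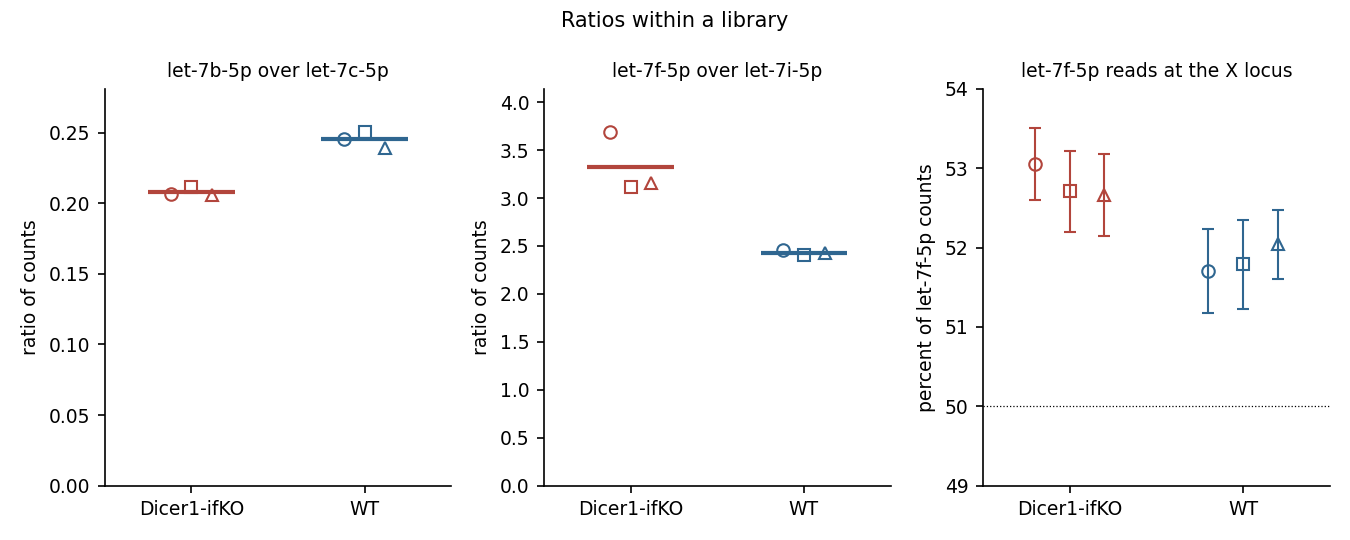
Ratios of counts within a library, with Dicer1-ifKO left of WT and symbols for replicates 1 (circle), 2 (square) and 3 (triangle): let-7b-5p over let-7c-5p and let-7f-5p over let-7i-5p with the group mean as a line, and the percent of let-7f-5p counts in the chromosome X row with its 95% Wilson interval, on an axis that does not start at 0. The let-7b-5p ratio is 0.206 to 0.211 in Dicer1-ifKO and 0.239 to 0.251 in WT.

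The 5p members did not all vary alike across the libraries. Let-7f-5p, let-7g-5p and miR-98-5p lay 0.32 to 0.46 above their mean log2 CPM in Dicer1-ifKO replicate 1 and 0.39 to 0.42 above it in WT replicate 3, and below it or at most 0.0007 above it in the other libraries. In Dicer1-ifKO replicate 1 the deviation was 0.07 for let-7a-5p, 0.08 for let-7i-5p, -0.10 for let-7d-5p, -0.20 for let-7c-5p, -0.32 for let-7b-5p and -0.38 for let-7e-5p. Let-7e-5p, let-7d-5p, let-7c-5p and let-7b-5p, the 4 without overlap, were below their mean in all 3 Dicer1-ifKO libraries, and let-7b-5p and let-7c-5p were above it in all 3 WT libraries, let-7c-5p by 0.0045 in WT replicate 2. In WT replicate 3 all 9 5p members were above their mean, and the median over all tested miRNAs was 0.33 above its own there. Let-7i-5p had the highest deviation in that library, at 0.64. The high values of WT replicate 3 were thus shared by miRNAs in general, while in Dicer1-ifKO replicate 1 the median over all tested miRNAs was -0.0060.

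**Figure D4:**
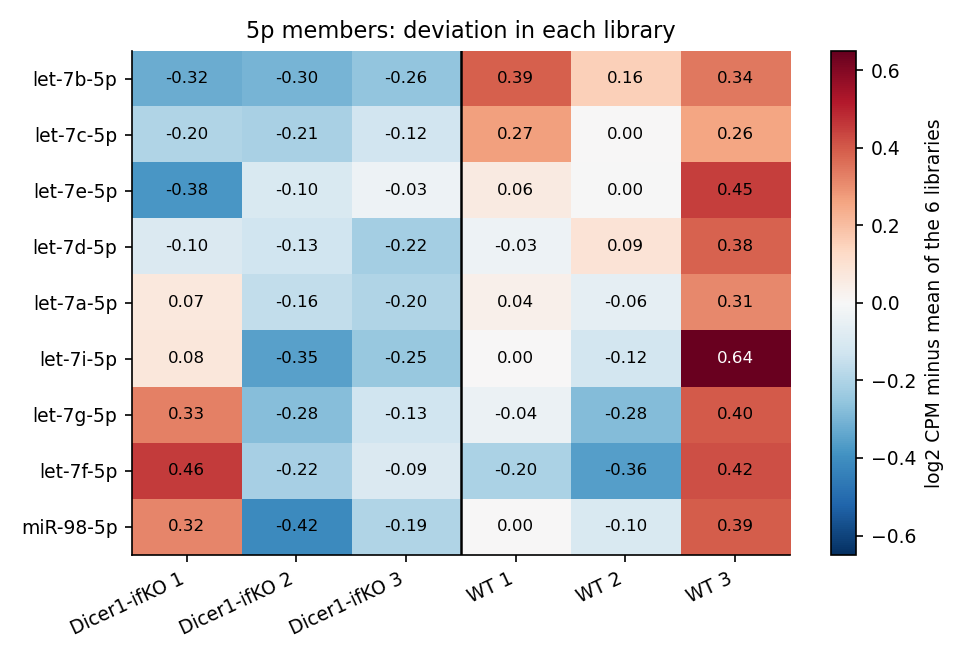
Deviation of each 5p member (rows) in each library (columns, Dicer1-ifKO left of WT) from its mean over the 6 libraries, in log2 CPM, in colour and as printed values. Let-7e-5p, let-7d-5p, let-7c-5p and let-7b-5p do not overlap between the genotypes, and let-7f-5p, let-7g-5p and miR-98-5p are above 0.3 in both Dicer1-ifKO replicate 1 and WT replicate 3.

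Base composition is given beside these changes as a further measured value. The GC content of the 5p members runs from 31.8% in let-7f-5p and miR-98-5p through 36.4% in let-7a-5p and let-7g-5p and 40.9% in let-7c-5p, let-7d-5p, let-7e-5p and let-7i-5p to 45.5% in let-7b-5p. Across the 9 5p members, which share libraries and differ by few bases, the log2 change went down with GC content (Spearman's rho -0.91, n = 9), and across 429 other tested miRNAs with a known sequence rho was -0.29. Over all 20 tested members it was -0.39. Per library, the deviation of the 429 miRNAs followed GC content with rho of -0.46 in Dicer1-ifKO replicate 1 and 0.47 in WT replicate 2, and with rho between -0.05 and 0.14 in the other 4 libraries. Without those 2 libraries rho was -0.41 across the 5p members and -0.04 across the other miRNAs. Let-7b-5p then had a log2 change of -0.56 (edgeR adjusted p = 0.67) and let-7f-5p one of -0.22, and with the GC trend removed let-7b-5p had -0.36 (edgeR adjusted p = 0.53).

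**Figure D5:**
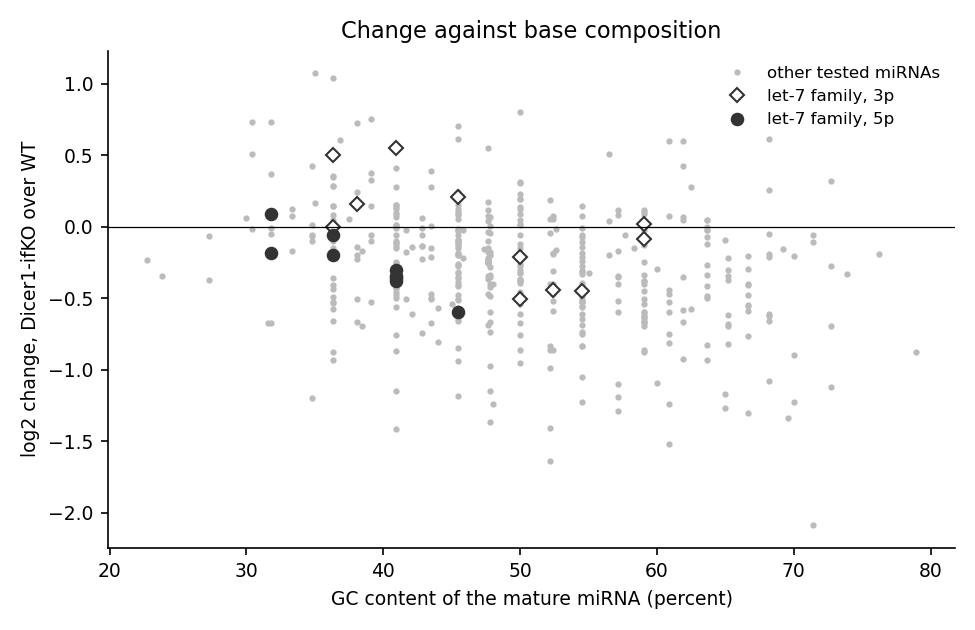
Log2 change, Dicer1-ifKO over WT, against the GC content of the mature sequence in percent, for the 5p members (filled circles), the 3p members (open diamonds) and 429 other tested miRNAs (grey). Of the 5p members, let-7f-5p at 31.8% GC is the highest (0.09) and let-7b-5p at 45.5% GC the lowest (-0.59). MiR-98-5p, also at 31.8% GC, lies at -0.18, below let-7g-5p (-0.06) at 36.4%.

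Some let-7 hairpins are transcribed with miR-100, miR-99 and miR-125 hairpins, relatives of each other that lie beside them in the genome. Of 8 such miRNAs within 10000 bases of a member on the same strand, 7 were tested (all but miR-100-3p), 1 was lower and 0 were higher, where 6.88% of tested miRNAs were lower and 0.0% higher. The 1 was miR-99b-3p, which lies next to let-7e at chr17:17830232-17830253. It had 1.18, 1.41 and 1.36 CPM in Dicer1-ifKO replicates 1, 2 and 3, and 2.52, 2.15 and 2.88 CPM in WT replicates 1, 2 and 3. Every Dicer1-ifKO library was lower (log2 -0.93 ± 0.19 SE, edgeR adjusted p = 0.043). It was called in 6 of 18 alternatives, with an adjusted p of 0.021 to 0.46, and leaving out any single library other than WT replicate 1 ended the call. Without Dicer1-ifKO replicates 1, 2 or 3 the edgeR adjusted p was 0.21, 0.35 and 0.39, and without WT replicates 2 or 3 it was 0.051 and 0.22.

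The neighbour on the other side of let-7e, miR-125a-5p, stood at 2308 ± 167 CPM in Dicer1-ifKO and 2884 ± 408 CPM in WT (SD, n = 3 each; log2 -0.32, edgeR adjusted p = 0.54), close to the -0.35 of let-7e-5p. MiR-125a-3p had a log2 change of -0.64 (edgeR adjusted p = 0.16). MiR-99b-5p had 450, 477 and 477 CPM in Dicer1-ifKO and 377, 762 and 727 CPM in WT. WT replicate 1 stood below all other libraries for it, and without that library miR-99b-5p was called (log2 -0.66, edgeR adjusted p = 0.0050), against log2 -0.41 and an edgeR adjusted p of 0.82 with it. WT replicate 1 was also the lowest library for miR-100-5p, beside let-7a-2, at 314, 327 and 320 CPM in Dicer1-ifKO and 184, 321 and 377 CPM in WT (log2 0.12, edgeR adjusted p = 0.99). MiR-99a-5p, beside let-7c-1, had a log2 change of -0.22 (edgeR adjusted p = 0.93) and miR-99a-3p one of 0.12.

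Genes that process let-7 or control it were covered by few reads in these small RNA libraries. Of 14 such genes with a span in the files, among them Lin28a and Lin28b, Drosha, Dgcr8 and Dicer1, 4 were tested, with 0 lower and 0 higher (lowest edgeR adjusted p = 0.86), where 0.784% of all tested features were lower and 0.0154% higher. Lin28a had 1 count and Lin28b 3 counts over the 6 libraries.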

How the data were processed

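Each deposited file lists 109108 features with a raw and a normalized column. The raw column holds read counts per feature as the authors deposited them. The normalized column is a signal, which the deposited values show to be the raw counts times 1 constant per library, and served only to check this. The tools named in the submitters' processing notes are BWA, SAMtools 0.1.18, CASAVA 1.8.2 and DESeq2 and the build is GRCm38 (mm10), with no step given for any tool. Not given in the sources used here are the counter, its strand setting and how reads with several alignments were treated.

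Rows of 1 mature miRNA were summed, and repeats of other rows with identical counts, gene and chromosome were dropped. Of the dropped rows, 13606 had any counts and the rest were 0 in all libraries, and 65693 rows were left. The genotypes were compared with edgeR 4.0.16 in R 4.3.3 (filterByExpr with minimum count 10, TMM over all 6502 tested features, robust quasi-likelihood test, two-sided, Benjamini-Hochberg over all tested features, threshold 0.05), after a test on simulated counts. The standard error comes from the F statistic. Summed counts of all deposited features were 55101387 to 77428956 per library, and those of the merged and tested features, the base of CPM, 39319524 to 54537209. Shares and ratios were tested by exact permutation (two-sided) over the 6 libraries, which cannot go below p = 0.1 with 3 against 3.

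Alternatives were other scalings, DESeq2 1.42.0, other filters, a fit of miRNA rows alone, rows as deposited, a replicate block, removal of a GC trend (loess, span 0.75, GC known for 449 of 509 miRNAs), and leaving out each library. Every member averaging 10 counts or more in a library is named. The members, lists and tests were chosen with earlier results of these data known. The locus shares, the ratios of members, the joined 3p rows and leaving out Dicer1-ifKO replicate 1 with WT replicate 2 were added after the values were seen. Group and replicate were taken from the sample titles. Per the labels, libraries within a genotype are biological replicates, and miRNA counts differed between them by far more than counting noise (chi-square per degree of freedom 28.4 to 82.8). Each library pools 3 mice, or 9 mice per genotype, while the design text gives 12. No library was left out of the comparison.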

Additional observations from a re-analysis of the deposited data

How the results depend on the processing

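At most 1 of the 20 tested members was called under any alternative, though some rare 3p members had no adjusted p under some of the alternatives. With 1 library left out, 0 to 1 members were lower (let-7b-5p, without WT replicate 1), 0 were higher, and the median log2 change of the members ranged from -0.26 to -0.01. That median was 0.069 with TMM over the miRNA rows and 0.070 in the fit of those rows alone, where by construction the miRNAs set the level. With 1 library left out, the count of hairpin families whose 3p share did not overlap was 1 to 3, and it was 3 without Dicer1-ifKO replicate 3, WT replicate 2 or WT replicate 3. Fewer libraries can only keep or raise this count, and no share over all miRNAs was computed beside it. Of the values that changed sign, none of them called, those with TMM over the miRNA rows were let-7a-5p 0.065, let-7g-5p 0.20, miR-98-5p 0.073, let-7b-3p 0.036, let-7i-3p 0.18 and miR-99a-5p 0.057, and in the fit of those rows alone 0.066, 0.20, 0.074, 0.038, 0.18 and 0.058 in that order. With the GC trend removed they were let-7g-5p 0.041, let-7b-3p 0.080, let-7i-3p 0.31, miR-99a-5p 0.098 and miR-99b-5p 0.035. Let-7g-5p had 0.0009 on library totals and 0.0001 with a mean of at least 50 counts. Without Dicer1-ifKO replicate 1 and WT replicate 2 together they were let-7f-5p -0.22, let-7b-3p 0.0026, let-7f-2-3p -0.10, let-7g-3p -0.048, let-7a-1-3p -0.16 and miR-99a-3p -0.10. With 1 library left out, let-7f-5p ranged from -0.15 to 0.41, let-7g-5p from -0.26 to 0.20, miR-98-5p from -0.42 to 0.033, let-7i-3p from -0.25 to 0.12, let-7f-2-3p from -0.016 to 0.42, let-7g-3p from -0.10 to 0.27, let-7a-1-3p from -0.17 to 0.25, miR-100-5p from -0.11 to 0.39 and miR-99a-3p from -0.14 to 0.30. The cause of these sign changes was not tested. Samples with the same replicate number did not deviate together over all features (correlations -0.18, 0.07 and -0.16). Over the miRNAs the correlations were -0.05, 0.25 and -0.26 for replicates 1, 2 and 3. So few correlations cannot settle whether the samples are paired, and the main comparison did not pair them. With the replicate block, 0 members were lower, 0 were higher, the median was -0.19, let-7a-1-3p had -0.0032, and miR-99b-3p was not called (edgeR adjusted p = 0.18). The share of miRNA counts held by the members differed by -0.13 percentage points between Dicer1-ifKO and WT, within 1 SD of either genotype. With the most abundant other miRNA left out of the total it differed by 0.10, for which no SD is given. Standard errors on the log2 scale were 0.22 to 0.34 for the 8 rarest tested 3p members, at 11.5 to 89 counts per library, and 0.12 to 0.25 for the 9 5p members.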

Other observations

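Let-7j, left out of the family by its rule, is listed in RefSeq as the 24-nt sequence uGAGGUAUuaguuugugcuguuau, with bases 2 to 8 in capitals. It differs from let-7i-5p by G8U within the seed, positions counted from the 5′ end, and carries 2 more bases at its 3′ end. Its row had 1026, 1177 and 999 counts in Dicer1-ifKO replicates 1, 2 and 3, and 1135, 909 and 1585 in WT replicates 1, 2 and 3. Let-7i-5p had 12390, 11772 and 11256 counts in Dicer1-ifKO and 13855, 12496 and 20447 in WT. WT replicate 3 was the highest library for both.

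In RefSeq, 11 mature miRNA names have the let-7 seed, the 9 members of the 5p arm, let-7k and miR-1961. Let-7k had 21, 24 and 17 counts in Dicer1-ifKO and 21, 19 and 30 in WT, and miR-1961 had 0 counts in all 6 libraries.

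The summed level of all members was 4255, 3611 and 3752 CPM in Dicer1-ifKO replicates 1, 2 and 3, and 4469, 4004 and 5332 CPM in WT replicates 1, 2 and 3. Among 347 other miRNAs averaging 50 counts or more in a library, the 5 whose log2 CPM followed it most closely over the 6 libraries were miR-3068-3p (Pearson's r 0.998), miR-551b-3p (0.987), miR-127-5p (0.982), miR-25-3p (0.981) and miR-27b-3p (0.976). They were picked as the highest of 347, over 6 libraries that share their depth and scaling. MiR-27b-3p, the most abundant of the 5, had 1444, 1141 and 1220 CPM in Dicer1-ifKO and 1402, 1359 and 1776 CPM in WT.

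A transcript span on the strand opposite to let-7c-1, Gm11146 on chromosome 16, held 234029 counts over the 6 libraries. Of these, 197206 were those of let-7c rows on the other strand, and miRNA rows together accounted for 233990. Its deposited counts are therefore not a level of that transcript.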
